A study of Mus musculus with 8 samples.

Results

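The genes described here are the E2F transcription factors E2f1 to E2f5, the RB family (Rb1, Rbl1 and Rbl2) and the cyclin E genes Ccne1 and Ccne2, measured in mouse neural stem and progenitor cells with and without Prmt5. They were chosen by symbol, taking every array probe annotated to 1 of these 10 genes. The 10 genes have 15 probes on the array. A gene was tested when at least 1 of its probes was detected (detection p-value under 0.05) on at least 4 of the 8 arrays, and 9 of the 10 genes passed, among 9001 genes tested in all. Rbl2 did not pass.

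The cells came from E14.5 embryos of a mixed C57BL/6 X 129S1/SvlmJ background. Control cells were Prmt5F/F, with both alleles floxed and no Cre (4 arrays), and Prmt5-depleted cells were Prmt5F/FNes, carrying the floxed alleles and Nestin-Cre (4 arrays). Nestin is active in neural progenitors, so Cre was driven in that lineage, and effects of Cre and of Prmt5 loss cannot be told apart. Prmt5 is the methyltransferase that makes symmetric dimethylarginine on histones and splicing proteins. Nothing in the labels ties an array to its own embryo or culture, so each p-value reflects only the spread among arrays, which may be technical.

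In textbook outline, RB family proteins, also called pocket proteins, bind E2F factors and hold down genes needed for S phase. Cyclin D and cyclin E kinases phosphorylate the pocket proteins, E2F is released, and E2F then raises the transcription of replication genes and of several of its own circuit's members, cyclin E and activator E2Fs included. E2F1, E2F2 and E2F3 are the activator E2Fs, and E2F4 and E2F5 are the repressor E2Fs that act mostly with p107 (Rbl1) and p130 (Rbl2). In the developing brain the circuit sets whether progenitors go on dividing or leave the cell cycle.

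Since E2F acts on the promoters of its own circuit, the members' promoter windows were searched for E2F words. The sequence around the starts of Rbl1, E2f3 and E2f2 is shown because their windows held such a word. Ccne1 and Rbl2, whose windows held none, are not printed. The sequence is as RefSeq gives it for the assembly GRCm38.p6, read 5′ to 3′ on the strand of the gene. Capitals mark a match to 1 of 4 E2F words, TTTCCCGC, TTTCGCGC, TTTGCCGC or TTTGGCGC, searched on both strands. The Rbl1 stretch is chr2:157204505-157204704 and the E2f3 stretch chr13:29986034-29986233, both on the minus strand and each running from 170 bases before the annotated start to 30 after it. The E2f2 stretch of 30 bases, chr4:136172294-136172323 on the plus strand, is the end of the window and lies after the start.
Rbl1: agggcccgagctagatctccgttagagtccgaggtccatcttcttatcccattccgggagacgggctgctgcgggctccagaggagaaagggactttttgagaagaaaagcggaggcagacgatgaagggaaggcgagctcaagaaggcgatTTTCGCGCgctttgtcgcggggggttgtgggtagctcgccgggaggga
E2f3: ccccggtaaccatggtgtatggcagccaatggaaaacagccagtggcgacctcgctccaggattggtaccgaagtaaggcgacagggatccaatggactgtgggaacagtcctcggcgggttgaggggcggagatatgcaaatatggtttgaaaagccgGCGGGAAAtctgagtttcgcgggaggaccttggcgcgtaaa
E2f2: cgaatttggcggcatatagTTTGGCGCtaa
In Rbl1 the word TTTCGCGC reads along the gene and begins 18 bases before the start. In E2f3 the word TTTCCCGC lies on the opposite strand, so the capitals show its reverse complement, and begins 11 bases before the start. A cell cycle homology word, TTTGAA, begins 23 bases before the E2f3 start. In E2f2 the word TTTGGCGC begins 39 bases after the start. Of the 10 genes, 5 had a 300-base window at the annotated start of the gene (E2f2, E2f3, Rbl1, Rbl2 and Ccne1), and 3 of these 5 held an E2F word, while 1.95% of the 19876 such windows of all genes did. TTTGAA was in 19.8% of those windows, Rbl2 and E2f3 among them. A match is a string of letters and no measure of binding, and Ccne1 and Rbl2, which had no E2F word, were read only within these windows.

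Prmt5 itself checks the labels. Its brightest probe read 10.02 to 10.54 on the control arrays and 7.32 to 8.21 on the Prmt5-depleted arrays in normalized log2 signal, and its 3 probes were 6.06-fold to 8.45-fold lower in the depleted cells. The probes were not placed against the floxed exons, so they check the direction only. Mean signal was 448.6 to 597.5 intensity units per array, and 12518 to 13602 of the 25662 probes were detected. The first principal component (76.1% of the variance) separated the genotypes. Control 4 and depleted 1 and 3 lay apart on the second (9.85%). Across all genes 24% were higher and 24.5% lower in the depleted cells, 48.6% in either direction, at an adjusted p under 0.05 (limma, Benjamini-Hochberg over all 9001 genes). The arrays of the genotypes did not overlap for 44.8% of genes, and among the 13196 probes kept 46.7% passed the test.

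Against that background, 7 of the 9 tested members were lower in Prmt5-depleted cells, 1 was higher (Rb1) and 1 was not called (E2f2). The median log2 change of the 9 was -0.79, beside -0.04 over all genes. For 8 of the 9 the control and depleted arrays did not overlap. With 48.6% of all genes past the test, passing it does not set a member apart. Values below are normalized log2 signals, and ± is the SD over 4 arrays.

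**Figure D1:**
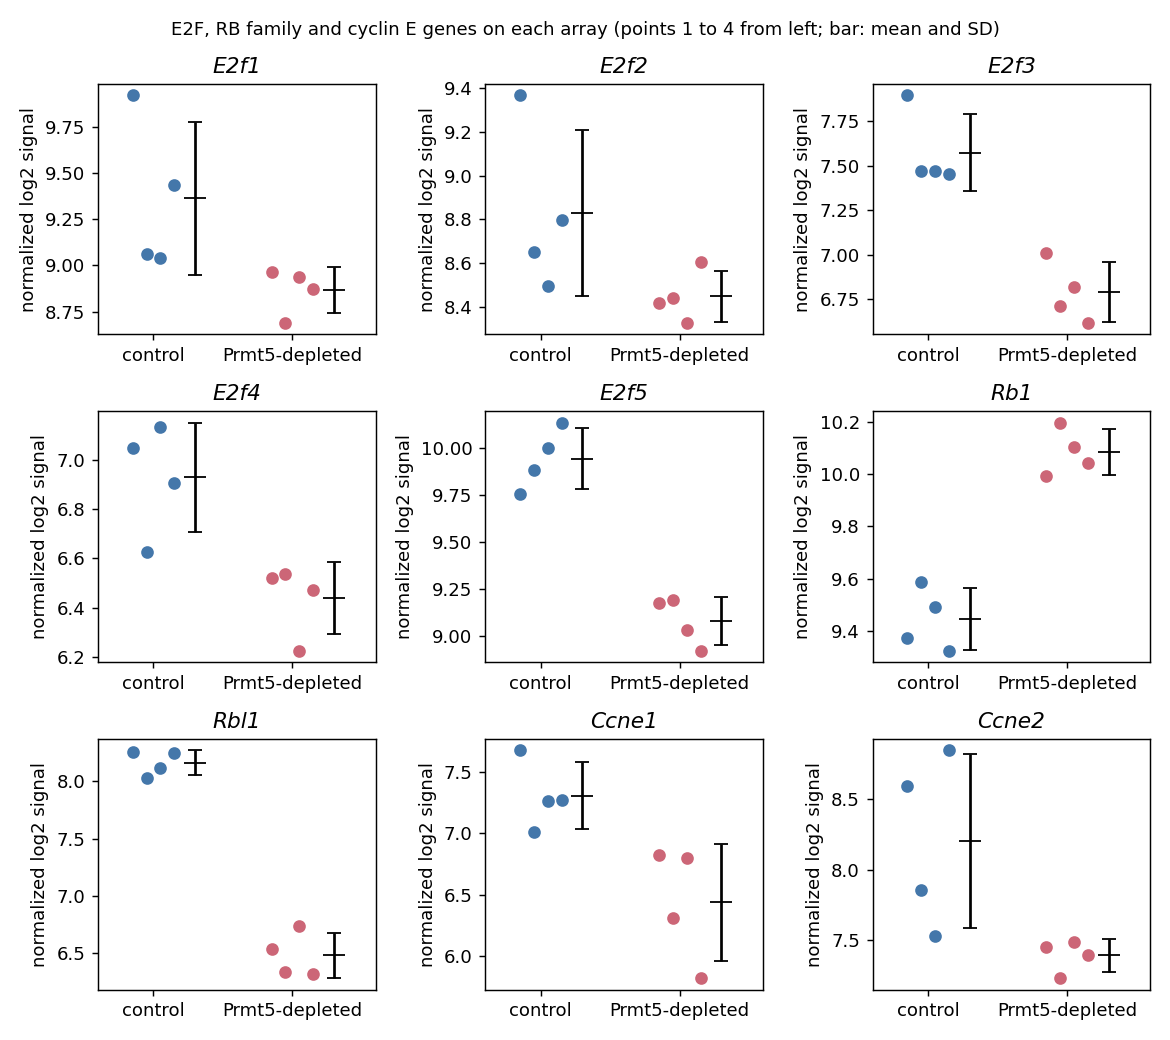
Normalized log2 signal (vertical axis, a scale for each gene) of the 9 tested members on the 4 control arrays (blue) and 4 Prmt5-depleted arrays (red), with points 1 to 4 from left in each genotype and bars for the mean and SD. Rb1 lies higher on every depleted array, E2f2 overlaps between genotypes, and Rbl1 has the widest gap, with control arrays at 8.03 to 8.26 and depleted arrays at 6.31 to 6.74.

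Among the activator E2Fs, E2f3 had the smallest adjusted p. It read 7.90, 7.47, 7.47 and 7.45 on control 1 to 4 and 7.01, 6.71, 6.81 and 6.61 on depleted 1 to 4. Every depleted array lay below every control array, and control 1 stood above the other controls. The fall was 1.73-fold (log2 change -0.79, SE 0.14, 95% interval -1.09 to -0.48, limma adjusted p = 0.000645), and it passed under all 17 other settings tried.

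E2f1, the founding activator, which can also drive apoptosis when in excess, was lower too. Its call was near the threshold and could be lost by leaving out 1 array. Control arrays read 9.92, 9.06, 9.04 and 9.44, and depleted arrays 8.96, 8.69, 8.94 and 8.87. The genotypes did not overlap, but the lowest control array (9.04) and the highest depleted array (8.96) were close. The difference was 1.41-fold (log2 change -0.50, SE 0.18, 95% interval -0.90 to -0.09, limma adjusted p = 0.0426). The call was lost without control 1 (log2 change -0.31, adjusted p = 0.0912) or control 4 (-0.47, adjusted p = 0.0789). Without depleted 1, 2, 3 or 4 the log2 change was -0.53, -0.44, -0.52 and -0.50, and the call was lost each time (adjusted p = 0.0569, 0.107, 0.065 and 0.0751). The call was also lost with no detection filter (adjusted p = 0.0879) and without the 3 arrays apart on the second component (0.112).

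E2f2 was measured by 2 detected probes and 1 (ILMN_1248842) that was not detected on any array. The brighter probe, ILMN_2673776, stood for the gene and read 9.37, 8.65, 8.50 and 8.80 on control arrays and 8.42, 8.44, 8.33 and 8.61 on depleted arrays. Depleted 4 lay above control 3, so the genotypes overlapped, and the change was not called (log2 change -0.38, SE 0.17, 95% interval -0.76 to -0.0005, limma adjusted p = 0.0908). The other probe, ILMN_2836137, had nearly the same change and tighter arrays. They read 8.40 to 8.90 in control and 8.12 to 8.35 in depleted cells, with no overlap. That probe passed in the fit of the kept probes (log2 change -0.38, limma adjusted p = 0.0383). The changes at the 2 probes were -0.004 apart (exact permutation test, two-sided p = 0.971), and the gene passed when its kept probes were averaged (adjusted p = 0.0496) or without control 3 (0.0437). Without control 1 its log2 change was -0.20 (adjusted p = 0.213), and without the 3 arrays apart on the second component the adjusted p was 0.326.

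The repressor E2Fs were both lower. E2f5 read 9.76, 9.88, 10 and 10.13 on control arrays and 9.17, 9.19, 9.03 and 8.92 on depleted arrays, so the lowest control array stood well above the highest depleted array. The fall was 1.82-fold (log2 change -0.86, SE 0.12, 95% interval -1.13 to -0.59, limma adjusted p = 0.000133) and passed in every one of the 17 settings. A second E2f5 probe, ILMN_2743953, was not detected on any array.

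E2f4, usually the most abundant E2F in resting cells, read 7.05, 6.63, 7.13 and 6.90 on control arrays and 6.52, 6.53, 6.23 and 6.47 on depleted arrays. Control 2, the lowest control, was only just above the depleted arrays. The fall was 1.40-fold (log2 change -0.49, SE 0.14, 95% interval -0.79 to -0.19, limma adjusted p = 0.0111). Its log2 size was -0.31 in the authors' quantile-normalized values, where no background was taken off, and -0.32 with an offset of 50, with the call kept in both. It was lost without the 3 arrays apart on the second component (adjusted p = 0.0776).

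The RB family changed in opposite directions. Rb1, the retinoblastoma protein gene, rose, Rbl1, which encodes p107, had the largest estimated fall of the 9 tested members, and Rbl2, which encodes p130, was not detected. Rbl1 read 8.26, 8.03, 8.11 and 8.24 on control arrays and 6.53, 6.33, 6.74 and 6.31 on depleted arrays. The gap between the genotypes was wider than the range within either. Rbl1 fell 3.21-fold (log2 change -1.68, SE 0.13, 95% interval -1.96 to -1.40, limma adjusted p = 1.242e-06), and 1.24% of all genes fell at least as far. The log2 change was between -1.79 and -1.22 over the 17 settings, all of them past the threshold.

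Rb1 rose at both of its probes. ILMN_2861644 read 9.37, 9.59, 9.49 and 9.32 on control arrays and 9.99, 10.20, 10.10 and 10.04 on depleted arrays, 1.56-fold higher (log2 change 0.64, SE 0.11, 95% interval 0.40 to 0.88, limma adjusted p = 0.00056). ILMN_2679619 read 7.53 to 7.93 and 8.37 to 8.79 in the same order, 1.77-fold higher (limma adjusted p = 0.000458 in the fit of the kept probes). At each probe all 4 depleted arrays lay above all 4 control arrays, and the changes of the probes were 0.19 apart, which did not pass (exact permutation test, two-sided p = 0.286).

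Rbl2 has 2 probes, ILMN_2774662 and ILMN_3009354, and neither was detected on any of the 8 arrays. Their raw signals were 72.5 to 93.8 and 70.7 to 86.1 intensity units, and the lowest detection p-values 0.10025 and 0.21805. No fold can be given for Rbl2, since both genotypes were at background.

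The per-array difference of Rb1 minus Rbl1 shows how far the 2 detected pocket protein genes moved apart. It was 1.12, 1.56, 1.38 and 1.08 on control arrays and 3.46, 3.86, 3.37 and 3.73 on depleted arrays, a shift of 2.32 on the log2 scale with no overlap. Its exact permutation p was 0.0286, which is the smallest that 4 arrays against 4 can give (two-sided), and 0.133 after Benjamini-Hochberg adjustment over the 7 pairs of members compared, so it did not pass. With 7 pairs, a single shift at the smallest attainable p cannot pass, whatever its size.

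The other pairs asked whether members of a subfamily changed unequally, except E2f1 against E2f4, which set an activator E2F beside a repressor E2F. The difference of log2 changes was 0.41 for E2f2 against E2f3 and 0.37 for E2f4 against E2f5, each at an exact p of 0.0571 (adjusted 0.133). It was 0.29 for E2f1 against E2f3 (exact p = 0.171), -0.12 for E2f1 against E2f2 (0.286), -0.05 for Ccne1 against Ccne2 (0.943) and -0.01 for E2f1 against E2f4 (0.971). In the authors' quantile-normalized values the difference was 0.22 for E2f2 against E2f3 and 0.11 for E2f1 against E2f3. None of these passed, which does not show that the members changed alike.

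**Figure D2:**
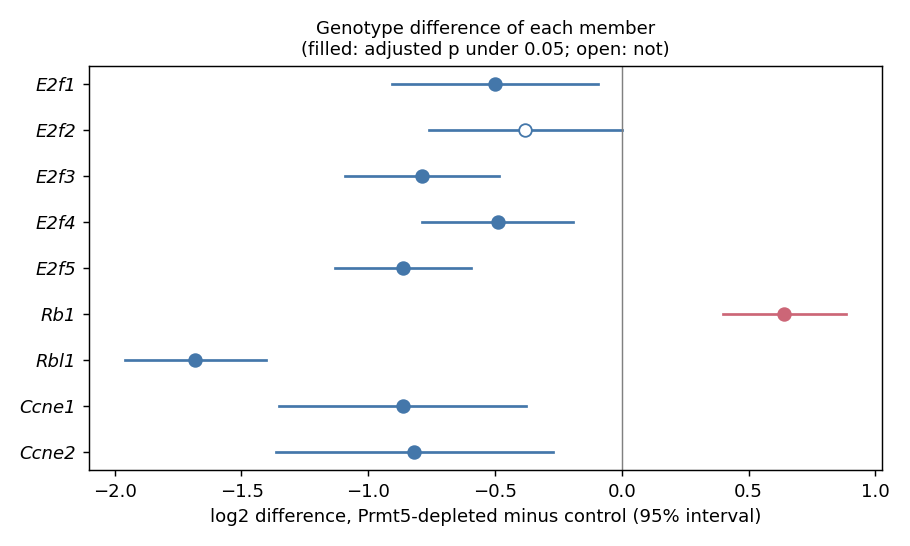
Log2 difference in normalized signal, Prmt5-depleted minus control (horizontal axis), for each of the 9 tested members, with 95% intervals from limma over 8 arrays. Filled points passed the adjusted threshold, and the open point, E2f2, did not. Rbl1 is lowest at -1.68, and Rb1 alone lies to the right of 0, at 0.64.

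Both cyclin E genes, whose products activate CDK2 at the start of S phase, were lower. Ccne1 read 7.67, 7.01, 7.26 and 7.27 on control arrays and 6.82, 6.31, 6.80 and 5.82 on depleted arrays, with depleted 4 lowest. The fall was 1.82-fold (log2 change -0.86, SE 0.22, 95% interval -1.35 to -0.38, limma adjusted p = 0.007). The log2 change was -0.56 in the authors' quantile-normalized values, and the call was kept in all 17 settings.

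Ccne2 varied widely among control arrays, at 8.59, 7.85, 7.53 and 8.85, and little among depleted arrays, at 7.45, 7.22, 7.49 and 7.39. The range was 1.33 in control and 0.26 in depleted cells, and control 3 lay close to the depleted arrays, yet did not overlap with them. The fall was 1.76-fold (log2 change -0.82, SE 0.25, 95% interval -1.36 to -0.27, limma adjusted p = 0.0176). The call was lost without control 1 (adjusted p = 0.057), with no detection filter (0.0532) and without the 3 arrays apart (0.0746).

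Single arrays stood high or low for several members. Control 1 was the highest of the controls for 5 of the 9 members, and depleted 4 the lowest of the depleted arrays for 4 of 9. The SD was larger in control than in depleted cells for 7 of 9. Control 1 also had the lowest mean signal of the 8 arrays (448.6), and the E2F target genes of DNA licensing summed to 25100 there against 17300 to 20500 on the other controls. Whether any of these plays a part in the calls of E2f1 and Ccne2 was not tested beyond leaving the array out.

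**Figure D3:**
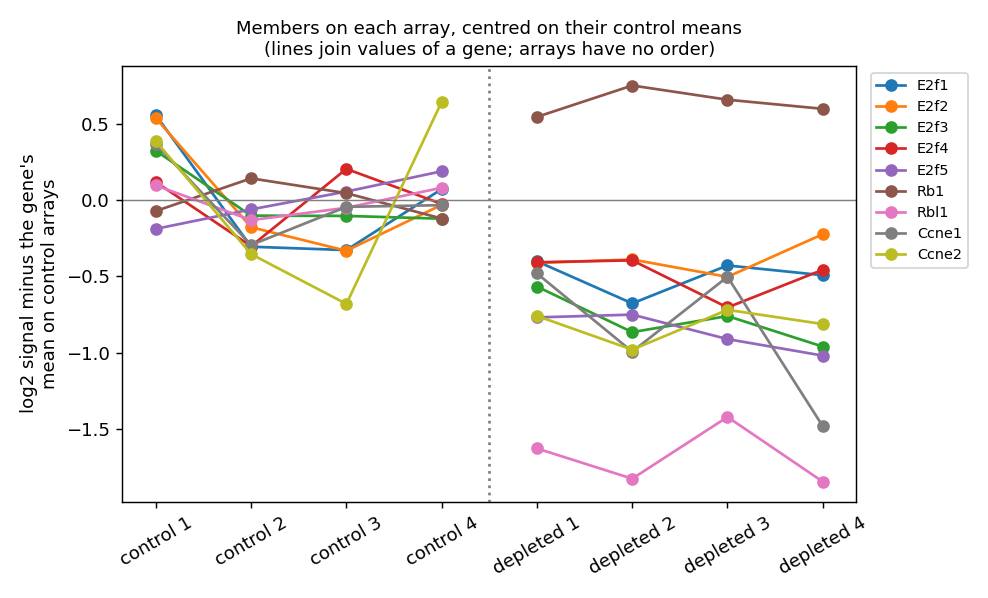
Normalized log2 signal minus the mean of the gene on control arrays (vertical axis) for the 9 tested members on each array (horizontal axis, control left, Prmt5-depleted right). Lines join the values of a gene within a genotype and carry no order. Rbl1 is lowest on every depleted array, Rb1 alone is above 0 there, and Ccne2 has the widest spread among controls, with a range of 1.33.

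For the 3 members with the smallest adjusted p, the genes with the most alike profiles were sought, by the root mean square difference over the 8 arrays of values centred on the control mean. Nearest to Rbl1 were Kif15, a mitotic kinesin (0.113), Mcm7, a subunit of the replicative helicase (0.119), and Galnt10 (0.124), where the median over all genes was 1.18. Nearest to E2f5 were Mpdu1 (0.07), Sfxn5 (0.0867) and Nampt (0.0891), where the median was 0.639. Nearest to Rb1 were Gria3, a glutamate receptor subunit (0.0422), Prnp (0.0648) and Ctnnd2 (0.0679), where the median was 0.574. The measure includes the genotype difference itself, and it describes these arrays only.

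The genes around the circuit were read from lists of known function. Of the 5 E2F partners and other E2Fs, 3 were tested and 2 were lower, E2f6 (log2 change -0.67, adjusted p = 0.000727) and Tfdp1, the dimer partner of E2Fs (-0.47, adjusted p = 0.0141), while Tfdp2 was at 0.17 and not called. Of 8 RB kinase and cyclin genes 6 were tested, 2 of them higher and 4 lower. Ccnd2 (1.09) and Ccnd1 (0.94), which activate the RB kinases CDK4 and CDK6, rose, and Cdk2 (-0.97) and Cdk1 (-0.76) fell, with Ccna2 (-0.80, detected on 3 of 4 depleted arrays) and Ccnd3 (-0.38) as the others that fell. Cdk6 was detected on at most 1 array.

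CDK inhibitors went both ways, with 1 higher, 3 lower and 3 not called of 7. Cdkn1a, the p53-induced inhibitor p21, rose 4.22-fold (log2 change 2.08, adjusted p = 2.46e-06), while Cdkn1c fell 3.04-fold, Cdkn2c 2.00-fold and Cdkn2a by 0.40 on the log2 scale (adjusted p = 0.0416, arrays overlapping). Cdkn2b (0.70), Cdkn2d (-0.32) and Cdkn1b (-0.12) were not called. Among 6 genes of cyclin E turnover and Cdc25a, Fbxw7, the ubiquitin ligase subunit that targets cyclin E, rose (0.68, adjusted p = 0.0101, arrays overlapping), and Skp2 (-0.97), Usp28 (-0.67) and Cdc25a (-0.66) fell, while Cul1 (-0.08) and Cul3 (-0.002) were not called.

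The targets of the circuit were mostly lower, and the 4 genes named from each list are those with the smallest adjusted p, not the largest changes. All 10 tested licensing genes fell (median log2 change -1.18), among them Mcm7 (-1.72), Mcm2 (-1.43), Mcm5 (-1.25) and Mcm4 (-0.97). Of 15 DNA synthesis genes, 12 fell and 3 were not called (median -0.83), with Pold1 (-1.95), Tk1 (-1.65), Rfc4 (-1.44) and Lig1 (-1.07) among those that fell and Pcna (-0.47), Rrm2 (-0.38) and Dut (-0.32) not called. Of 8 repair and chromatin genes, 7 fell and Msh6 (-0.02) was not called (median -1.05), with Brca2 (-1.12), Asf1b (-1.30), Ezh2 (-0.997) and Uhrf1 (-1.11) among those that fell.

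The mitotic side of the programme moved the same way. All 12 tested mitosis and G2/M genes fell (median -1.21), among them Top2a (-1.44), Kif11 (-1.50), Cenpa (-1.25) and Kif23 (-1.33), and both tested genes of the B-Myb and MuvB complex fell, Mybl2 (-1.59) and Lin54 (-0.68). The p53 target list was higher, with 12 of 15 genes called and none lower (median 1.10), Pmaip1 (2.60, detected on 3 of 4 control arrays), Trp53inp1 (1.95) and Ccng1 (1.96) among them and Sesn1, Sesn2 and Gadd45a not called. Fas was called too, but its log2 change of 3.31 starts from a level detected on 1 of 4 control arrays, and the rise was 8.04-fold when control values under the lowest detected signal were set to it.

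**Figure D4:**
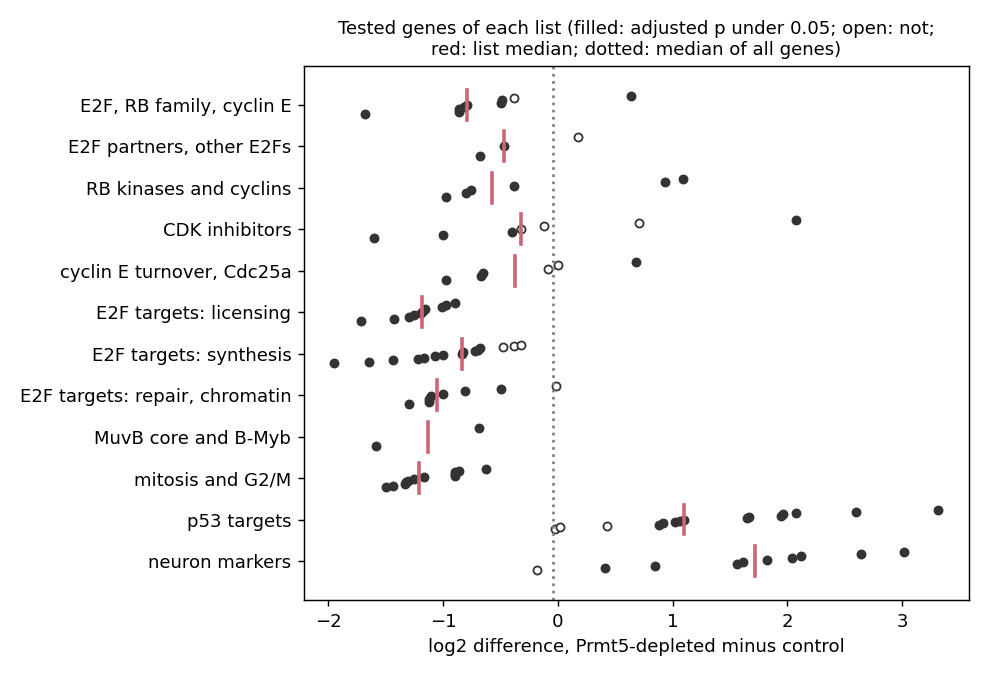
Log2 difference in normalized signal, Prmt5-depleted minus control (horizontal axis), of each tested gene of the members and of 11 lists, with the list median in red and the median of all genes (-0.04) dotted. Filled points passed the adjusted threshold. The medians of licensing (-1.18), synthesis (-0.83) and mitosis genes (-1.21) lie left of the members' median of -0.79, and those of p53 targets (1.10) and neuron markers (1.72) lie right of 0.

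Markers of other cell types moved with the genotype and are given beside these results. Of 10 tested neuron markers 9 were higher and Tubb3 was not called, and their summed linear signal was 7640 to 8450 on control and 22400 to 25000 on depleted arrays (Nefl and Snap25 were detected on 0 arrays). Of 8 neural stem markers 4 were lower, Hes5 (-3.14), Hes1 (-1.40), Sox2 (-1.21) and Notch1 (-0.97). Vim (0.54) and Nes (0.40) were higher, and Slc1a3 (-0.30) and Fabp7 (0.13) were not called. The sums were 33600 to 38300 and 32700 to 35800, and they mostly follow Slc1a3 and Vim, the 2 brightest. Pax6 and Msi1, defining markers of such progenitors, were detected on 0 arrays, and Prom1 on at most 1. Of 6 oligodendrocyte lineage markers 5 were lower and Mbp was higher (log2 change 2.06), with sums of 35000 to 39200 and 23100 to 27400. Olig1 (-0.48) was by far the brightest of them, so the sums mostly follow it. Pdgfra and Gpr17 were detected on 4 control and 0 depleted arrays and were at least 30.6-fold and 15.2-fold lower. Olig2 (-1.69) and Cspg4 (-1.27) fell as well. Of 6 mesenchyme markers on the array 2 were tested, and both, Dcn and Lum (the latter detected on 0 control arrays), were higher, summing to 69.7 to 83.8 and 452 to 802. Col1a1 and Pdgfrb were detected on 0 arrays, and Col1a2 and Col3a1 on at most 3. The haemoglobin gene Hba-a1, not detected in control cells, was at least 5.78-fold higher, and Alas2 was detected on 0 arrays. Of the astrocyte markers Slc1a2 was higher and Aldh1l1 not called, with sums of 331 to 478 and 538 to 712. Gfap and S100b were detected on 0 arrays and Aqp4 on at most 3. The 1 tested microglia marker, Aif1, was not called (sums of 16 to 21.4 and 19.1 to 38.9). The microglia markers Ptprc, Itgam and Tyrobp and the endothelial markers Pecam1, Cdh5 and Tek were detected on 0 arrays. The microglia marker Cx3cr1 was detected on at most 1 array and the endothelial marker Kdr on at most 3. In these samples fewer dividing cells and less of these RNAs per cell cannot be told apart. The part of these markers in the members' changes was not tested.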

How the data were processed

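The 8 RNA samples were measured on MouseRef-8 V2 arrays (Illumina), per the labels. The authors deposited non-normalized intensity values and a detection p-value for each probe and array, per the file headers. Scanner software is not given in the sources used here. A second table of intensity values from the authors equals the quantile-normalized first table within 3.64e-12 and served as an alternative.

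Signals were background corrected with detection p-values, given an offset of 16, quantile normalized and log2 transformed (neqc, limma 3.58.1, R 4.3.3). Kept probes had a detection p-value under 0.05 on at least 4 of 8 arrays, and a gene was its kept probe of highest mean signal. Genotypes were compared with lmFit and eBayes, two-sided, adjusted by Benjamini-Hochberg over all genes; pairs of members with exact permutation tests. The offset pulls log2 changes of dim probes towards 0. Where a genotype's arrays were all undetected, a fold is a lower bound from the lowest detected signal. The labels do not say whether replicate numbers pair the samples. Arrays of the same number had correlations of -0.38 to 0.251 in their deviations from the genotype means. With 4 arrays a genotype this cannot settle whether they are paired, and the main fit used no pairing. The script was tested on simulated data.

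Members and lists were chosen with earlier results of these data known. Named genes are all members, up to 4 called genes per list by adjusted p, and 3 profile neighbours for each of 3 members; genes beyond these were named after their values were seen. Promoter windows came from RefSeq, assembly GRCm38.p6. Protein sequences were not used here.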

Additional observations from a re-analysis of the deposited data

Results flagged for a closer look

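One value stood far from its group. E2f3 at ILMN_2743503 read 7.90 on control 1 against 7.45 to 7.47 on the other controls, a gap of 0.955 of the whole range of the group. Before normalization the same array read 241.1 intensity units against 238.2 to 244.5 on the other controls, so the raw signal of control 1 did not stand apart, and that array had the lowest mean signal of all. Of 22 groups of arrays compared in this way 1 stood out, where chance gives about 1 in 20.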

How the results depend on the processing

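Across 17 other settings (background, scaling, filter, probe choice, moderation, replicate block, each array left out, and the 3 arrays apart on the second component left out together) no member changed sign, and E2f3, E2f5, Rb1, Rbl1 and Ccne1 kept their calls in all. The call of E2f1 was lost in 8 settings, of Ccne2 in 3 and of E2f4 in 1, and E2f2 was gained in 2. Members called lower were 7 in the main setting and 5 to 8 with 1 array left out, and 4 without the 3 arrays apart, a setting chosen after the data were seen in which detection was asked on 3 of 5 arrays. That setting has fewer arrays and another filter, and the cause was not tested further. With the replicate block, members called were 1 higher and 7 lower and genes called 3923, against 4371 without it, and no member's call changed. Genes called lay between 3711 and 4450 over all settings. Median scaling left the median change of all genes at -0.03. The shift of Rb1 minus Rbl1 was 1.82 to 2.43 over 12 settings and passed the adjusted test in none of the 3 in which it was tested (adjusted p 0.1 to 0.2); the difference of E2f1 against E2f3 went from 0.29 to 0.11 and of E2f2 against E2f3 from 0.41 to 0.22 with the authors' quantile-normalized values, and the differences of E2f1 against E2f4 and Ccne1 against Ccne2, never called, took either sign. Rbl2, at background on all 8 arrays, did not pass the detection filter of the main setting, and 4 arrays a genotype limit the precision of every value.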
